A study of Mus musculus with 2 samples.

Results

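The Sprouty and Spred genes Spry1, Spry2, Spry4, Spred1 and Spred2 were examined in mouse bone marrow-derived macrophages (BMDMs) exposed to the supernatant of apoptotic cells. Every probe set that the annotation of the array gives to 1 of these 5 genes alone was taken, which made 20 probe sets of 45101. The exposed BMDMs spent 1 hr in supernatant from W3 cells, a mouse T cell line carrying Fas, which had been driven into apoptosis by 30 min with human Fas ligand (FasL) and, once washed, left for another 60 min in RPMI with 1% FCS. Control BMDMs were kept with medium, which the labels give as RPMI with 10% FCS. The macrophages of both conditions were grown for more than 7 days with M-CSF from the bone marrow of female C57BL/6J mice aged 8 weeks, and the number of mice behind each array is not given in the sources used here. The 2 conditions have 1 array each, an Affymetrix Mouse Genome 430 2.0 Array, so no test was run and every comparison below describes these 2 arrays. Supernatant from living W3 cells was not among the arrays, and the FCS content differed, so apoptosis, W3-conditioned medium and serum cannot be told apart.

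Sprouty and Spred proteins are feedback inhibitors of signalling by receptor tyrosine kinases. They share a cysteine-rich C-terminal domain that holds them at membranes, and they act on the path that runs through Grb2 and Sos, Ras, Raf and MEK to the MAP kinase ERK. Sprouty genes are typically transcribed in response to the growth factor signals that their products restrain. Spred proteins carry an additional N-terminal EVH1 domain, through which they bring neurofibromin, a Ras GTPase-activating protein, to the membrane. In macrophages the receptor for M-CSF, Csf1r, is a main activator of this path.

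The sequences before and around the start sites of 4 of the 5 members, Spry1, Spry2, Spred1 and Spred2, were in the RefSeq promoter table of build GRCm38.p6. They are shown because the brightest probe sets of both Sprouty genes shown gave more signal with the supernatant while those of both Spred genes hardly differed. Each line holds 250 bases before the start site and 50 bases from it onward, read along the gene, and the Sprouty and Spred windows lie at chr3:37639697-37639996 (plus strand), chr14:105896770-105897069 (minus strand), chr2:117120821-117121120 (plus strand) and chr11:19924192-19924491 (plus strand). Capitals mark matches to the motifs searched.
Spry1: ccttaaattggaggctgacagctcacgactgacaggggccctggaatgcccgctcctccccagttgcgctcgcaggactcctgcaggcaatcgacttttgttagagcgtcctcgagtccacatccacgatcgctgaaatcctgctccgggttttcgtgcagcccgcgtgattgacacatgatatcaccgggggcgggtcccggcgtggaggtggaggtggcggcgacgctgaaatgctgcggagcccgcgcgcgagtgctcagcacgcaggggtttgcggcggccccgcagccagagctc
Spry2: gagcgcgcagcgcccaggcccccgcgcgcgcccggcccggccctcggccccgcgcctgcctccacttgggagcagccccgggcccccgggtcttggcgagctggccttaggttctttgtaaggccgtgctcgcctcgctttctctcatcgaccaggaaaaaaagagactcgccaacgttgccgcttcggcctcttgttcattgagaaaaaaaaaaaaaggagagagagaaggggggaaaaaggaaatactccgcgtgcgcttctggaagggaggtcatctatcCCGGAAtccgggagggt
Spred1: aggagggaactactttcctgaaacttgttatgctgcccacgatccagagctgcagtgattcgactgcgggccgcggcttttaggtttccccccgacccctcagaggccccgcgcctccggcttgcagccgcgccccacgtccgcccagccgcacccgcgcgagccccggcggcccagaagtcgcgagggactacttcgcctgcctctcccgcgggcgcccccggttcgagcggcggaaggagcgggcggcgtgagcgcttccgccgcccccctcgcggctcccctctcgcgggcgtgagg
Spred2: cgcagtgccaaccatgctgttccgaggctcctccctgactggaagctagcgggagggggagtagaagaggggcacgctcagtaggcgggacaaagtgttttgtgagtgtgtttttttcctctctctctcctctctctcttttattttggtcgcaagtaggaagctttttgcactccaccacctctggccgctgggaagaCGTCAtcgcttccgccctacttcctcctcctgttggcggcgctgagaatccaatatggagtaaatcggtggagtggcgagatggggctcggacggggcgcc
The motifs were searched on both strands, namely the full cAMP response element (TGACGTCA), its core (TGACG), the AP-1 site (TGANTCA), the Egr site (GCGTGGGCG), an ETS site (CCGGAA) and the CArG box bound by serum response factor. The core lies within the full element, and the other motifs do not contain each other. Spred2 held the core on its minus strand, printed as CGTCA, at bases -51 to -47 from the start site. Spry2 held CCGGAA at bases 34 to 39 after it, and none of these letters was found in the windows of Spry1 and Spred1. Over all 32851 windows of the same length the core was present in 20.8%, CCGGAA in 14.9%, the AP-1 site in 7.81%, the full element in 1.79%, the CArG box in 1.63% and the Egr site in 0.612%, so the 2 matches are to common motifs. The windows of Spry1, Spry2, Spred1 and Spred2 had GC contents of 64.3, 62.7, 72.3 and 57.0%, against a median of 52.7% over all windows.

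The deposited values are linear MAS5 intensities, called signals here. Signals of different probe sets depend on their probes, so they are compared between the 2 arrays and never between genes. Dim signals were cut at a floor of 38.4, taken from 80 probe sets for olfactory and vomeronasal receptors, genes not thought to be active in macrophages. The highest signal among these receptor probe sets was 44.7 on the supernatant array and 62.4 on the medium array. A signal under the floor was set to it, a ratio with 1 such signal is a lower bound written as "at least", and no ratio is given when both are under it. By this rule 14 of the 20 Sprouty and Spred probe sets were measured, and all 5 genes had at least 1 measured probe set. Among measured single-gene probe sets the SD of the log2 ratio was 0.45 where the medium signal lay between the floor and 2 times the floor (n = 3550 probe sets) and 0.22 where it was over 10 times the floor (n = 10348 probe sets). Dim probe sets therefore scattered more between these arrays. The arrays measure RNA of the whole culture, in which fewer cells of a type and less RNA per cell cannot be told apart.

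Spry1 and Spry2 gave more signal in BMDMs exposed to the apoptotic cell supernatant than in those kept with medium. Spry1, a Sprouty protein known as an antagonist of growth factor signalling in kidney development, is read by 1 probe set (1415874_at), which gave 112 with the supernatant and 52.1 with medium. Its ratio was 2.14-fold, a log2 ratio of 1.10. The supernatant signal lay above every receptor probe set, whereas the medium signal lay below the highest of them, so the size of this ratio rests on a dim medium signal. With the floor set 2 times as high the medium signal was raised to it, which left a lower bound of 0.54 on the log2 ratio. That bound does not show whether 2-fold was reached. Of probe sets with medium signals in the same dim range, from 1 to 2 times the floor, 1.77% were at least 2-fold higher with the supernatant.

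Spry2 encodes a Sprouty protein that binds the adaptor Grb2 and the ubiquitin ligase Cbl. Its brighter probe set (1436584_at) gave 564 with the supernatant and 316 with medium, 1.78-fold higher, a log2 ratio of 0.84. Both signals stood far above the receptor probe sets. The other Spry2 probe set (1421656_at) gave 51.6 with the supernatant and 34.4 with medium, at least 1.34-fold higher. This supernatant signal lay just above the receptor probe sets of its array, and the medium signal lay under the floor. The 2 probe sets thus differed between the arrays in the same direction, with the brighter one short of 2-fold. The dimmer one passed the floor on the supernatant array alone, so its floored ratio could only be upward.

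Spry4, which like the other Sprouty proteins restrains activation of ERK, was at the edge of detection. Its brightest probe set (1440867_at) gave 46.8 with the supernatant and 36.5 with medium, at least 1.22-fold higher. The other 3 Spry4 probe sets lay under the floor on both arrays, with signals of 24.3, 6.88 and 1.57 with the supernatant and 19.5, 5.67 and 2.91 with medium. Of all Spry4 signals, the 46.8 with the supernatant was the one above the receptor probe sets of its own array, by a small margin, and a difference in Spry4 was not detectable at these signals.

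Spred1, whose human counterpart is mutated in Legius syndrome, had bright and nearly equal signals on both arrays. Its brightest probe set (1423160_at) gave 3335 with the supernatant and 3320 with medium, a log2 ratio of 0.01. The other 5 measured Spred1 probe sets gave 1584, 1339, 681, 590 and 289 with the supernatant, against 1363, 1394, 534, 529 and 324 with medium in the same order. Their log2 ratios ran from -0.16 to 0.35, so 4 of 6 measured Spred1 probe sets were higher with the supernatant, 2 were lower and none reached 2-fold. For scale, a probe set's log2 ratio had an SD of 0.25, from the differences between the 2 brightest probe sets of 5196 genes. The SD of these differences was divided by the square root of 2. It covers disagreement between probe sets and no error that the probe sets of an array share, and there were no replicate arrays. The remaining 2 Spred1 probe sets were under the floor on both arrays.

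The probe sets of Spred2, a close relative of Spred1, disagreed with each other. The brightest (1434403_at) gave 2401 with the supernatant and 2381 with medium, a log2 ratio of 0.01, and the next (1436892_at) gave 207 with the supernatant and 187 with medium, 1.10-fold higher. A dimmer probe set (1441415_at) gave 154 with the supernatant and 53.8 with medium, 2.87-fold higher, the largest ratio of the 14 measured Sprouty and Spred probe sets. Another (1423001_at) gave 65.3 with the supernatant and 39.9 with medium, 1.64-fold higher. The 2 brighter Spred2 probe sets therefore showed little difference, and the 2 dimmer ones, whose medium signals were within the range of the receptor probe sets on that array, were higher with the supernatant. The fifth Spred2 probe set read 9.48 with the supernatant and 6.22 with medium, under the floor on both arrays. Which transcripts of Spred2 each probe set reads was not analysed here.

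**Figure D1:**
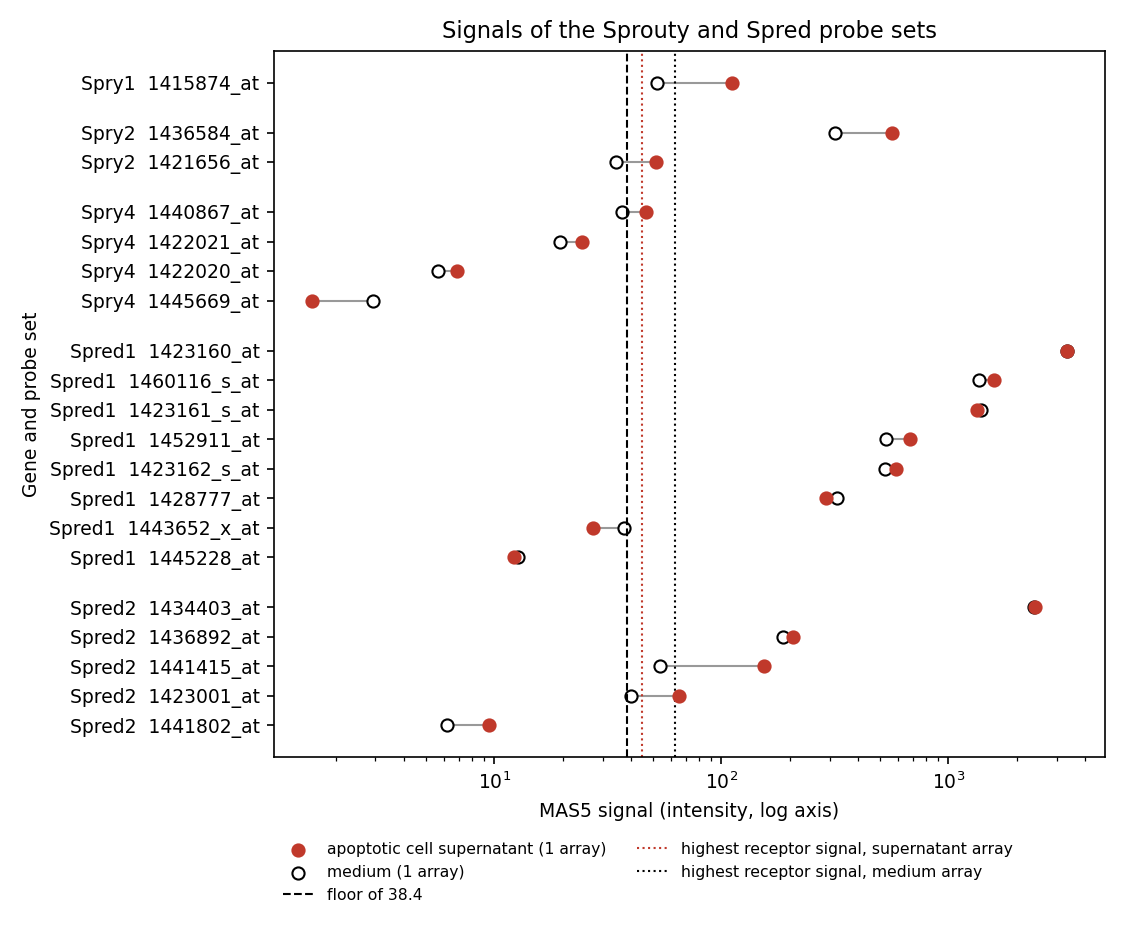
MAS5 signal (intensity, log axis) of each of the 20 Sprouty and Spred probe sets with apoptotic cell supernatant (filled circles) and with medium (open circles), 1 array each, with the floor of 38.4 as a dashed line and dotted lines at the highest receptor signal, 44.7 on the supernatant array (red) and 62.4 on the medium array (black). Spry1, the brighter Spry2 probe set and Spred2 1441415_at show the widest gaps to the right of the floor, while the brightest Spred1 and Spred2 circles overlap.

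With each gene represented by its probe set of highest mean signal, 1 of the 5 genes, Spry1, was at least 2-fold higher with the supernatant and none was at least 2-fold lower. Over all 11977 measured genes 0.96% passed 2-fold upward and 0.843% downward. A count of 1 among 5 genes cannot be set against such a background with any precision. In the order of log2 ratios, 88 of the 11977 measured genes had a higher ratio than Spry1 and 208 had a higher ratio than Spry2, whereas 5101 had a higher ratio than Spred2 and 5238 a higher ratio than Spred1. Spry4, by its lower bound, had 1329 genes above it. The median log2 ratio of the 5 genes was 0.29, set by the lower bound of Spry4, and that of all measured genes was -0.02.

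Counted by probe set, 2 of the 14 measured ones, those of Spry1 and the dimmer Spred2 probe set 1441415_at, were at least 2-fold higher and none was at least 2-fold lower, against 0.974% higher and 1.06% lower over all measured single-gene probe sets. The supernatant gave the higher signal on 12 of the 14, compared with 44.4% of all measured single-gene probe sets, and probe sets of 1 gene read the same RNA and are not independent. The 4 measured Sprouty probe sets were all higher, with log2 ratios from at least 0.29 to 1.10. However, the dimmer Spry2 probe set and the Spry4 probe set passed the floor on the supernatant array alone. By the floor rule their ratios could only be upward, and both are among the 12 of the 14. Of the 10 measured Spred probe sets 8 were higher and 2 lower, with log2 ratios from -0.16 to 1.52. The ranges overlap, so the 5 Sprouty and Spred genes were separated by their brightest probe sets and not by all of them. For Spry4 even this rests on a lower bound at the edge of detection.

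**Figure D2:**
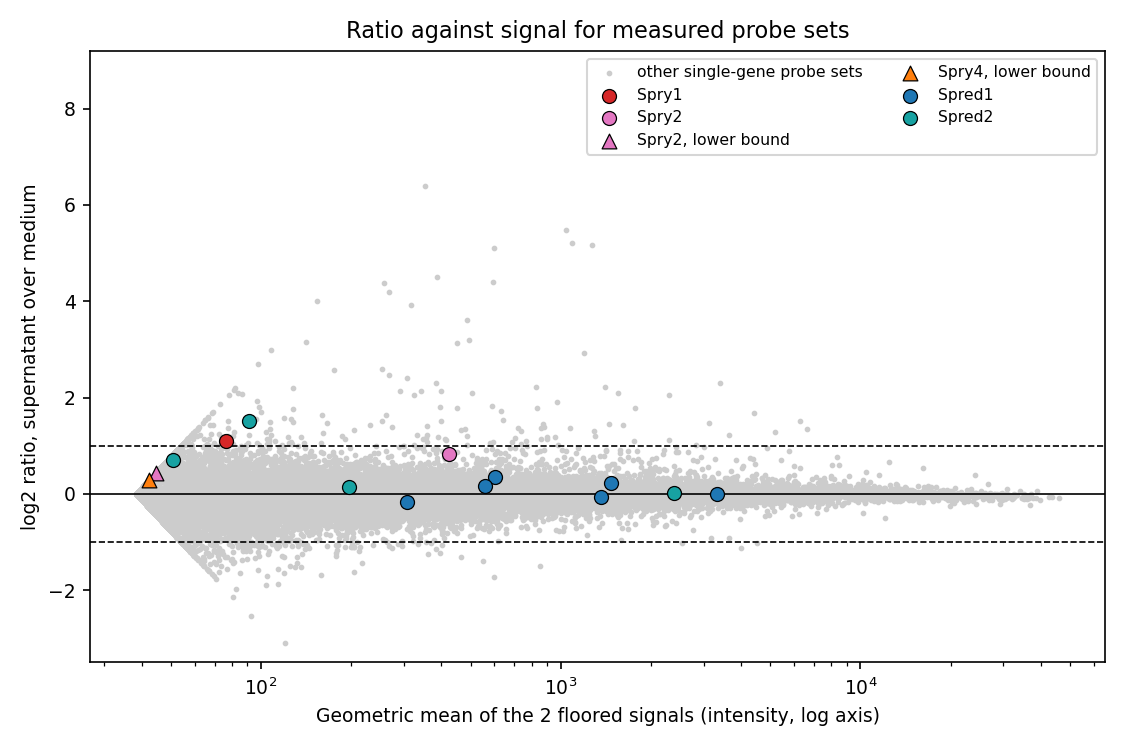
Supernatant-to-medium log2 ratio of floored signals against the geometric mean of the 2 floored signals (intensity, log axis) for all measured single-gene probe sets (grey), with the 14 measured Sprouty and Spred probe sets in colour, triangles for lower bounds and dashed lines for 2-fold. Grey points fan out toward dim signals, where Spry1 (1.10) and the dimmer Spred2 probe sets lie, and the brighter Spry2 probe set at 0.84 lies above most grey points of its signal.

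The relatives that are not among the 5 genes, Spry3 and Spred3, have 1 probe set each, and both were dim. Spry3 gave 48.0 with the supernatant and 59.1 with medium, a log2 ratio of -0.30. Spred3 gave 60.3 with the supernatant and 46.1 with medium, a log2 ratio of 0.39. Both supernatant signals lay above the receptor probe sets of their array, and both medium signals lay within the range of those on theirs. On these dim probe sets the Sprouty relative was lower with the supernatant and the Spred relative higher. The brightest probe sets of the 5 genes had the opposite order, so that order does not extend to these relatives.

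The genes through which Sprouty and Spred proteins act were mostly similar between the arrays. Of 137 genes placed in 10 lists by role, relatives included, 127 had a single-gene probe set and 112 were measured, and the other 10 genes are not analysed here. Of the 112, 9 were at least 2-fold higher with the supernatant and 2 were lower by as much, and their median log2 ratio was 0.03, against the 0.96% of genes called higher, the 0.843% called lower and the median of -0.02 over all measured genes. The 9 genes fell in 3 of the 10 lists, with 5 among ERK-induced genes, 3 among other feedback inhibitors and 1 among the receptors. The lists were chosen with earlier results of these data known, and the authors had already reported Egr2 and Egr3 as higher. These shares are therefore a description and no test of the path.

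Csf1r gave 28572 with the supernatant and 30999 with medium, a log2 ratio of -0.12. Among 12 measured receptor tyrosine kinases 1 was at least 2-fold higher, namely Mertk, a receptor that takes part in the engulfment of apoptotic cells, with 1050 with the supernatant and 471 with medium on its measured probe set, 2.23-fold. The receptors Egfr and Fgfr2 had log2 ratios of 0.44 and 0.40, with a bound of -0.25 on a dim second Egfr probe set, and Kdr, a receptor for VEGF, -0.31. None of 17 measured adaptors and exchange factors reached 2-fold in either direction. Gab3, a docking protein that acts below Csf1r, gave 177 with the supernatant and 113 with medium, 1.57-fold higher, and Rasgrp3, an exchange factor that activates Ras, gave 1624 with the supernatant and 1208 with medium, 1.34-fold higher, although its 2 probe sets had log2 ratios of -0.19 and 0.43. Gab1, a docking protein like Gab3, was at least 1.30-fold higher on a dim probe set, and Frs3, which links FGF receptors to Grb2, had a log2 ratio of -0.49. Grb2 itself, with a log2 ratio of -0.11, and the phosphatase Ptpn11, which relays receptor signals to Ras, with -0.01, hardly differed on their brightest probe sets.

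The 6 measured Ras GTPases had log2 ratios from -0.23 (Nras, whose other probe sets gave 0.04 and 0.07) to 0.36 (Rras2), with Rras at -0.12 and Mras, at the floor, at -0.09. Of 8 measured Ras GTPase-activating proteins, 1, Rasal2, was at least 2-fold lower with the supernatant, giving 48.4 with the supernatant and 116 with medium, and a second Rasal2 probe set gave 23.3 with the supernatant and 75.5 with medium. Nf1, which encodes the Spred partner neurofibromin, gave 196 with the supernatant and 206 with medium on its brightest probe set, and its other 2 measured probe sets were dim, with bounds on the log2 ratio of -0.56 and -0.50. Rasa2 and Rasa3 had log2 ratios of 0.26 and -0.25 and Dab2ip had -0.36, with a second probe set at 0.07. The lower Rasal2 signals therefore stood beside GTPase-activating proteins whose brightest probe sets differed little.

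Among 11 measured Raf, MEK, ERK and scaffold genes, Ksr1, a scaffold that brings Raf, MEK and ERK together, was at least 2-fold lower with the supernatant. Its brightest probe set gave 60.3 with the supernatant and 152 with medium, and a second gave 11.6 with the supernatant, under the floor, and 79.3 with medium. On the supernatant array the brightest probe sets of Ksr1 and Rasal2 lay above every receptor probe set, whose highest signal there was 44.7, while their second probe sets were under the floor, so the sizes of both differences rest on dim signals. With the floor set 2 times as high the bounds on their log2 ratios were -0.99 for Ksr1 and -0.59 for Rasal2. Averaged over all their probe sets the bounds were -0.15 and -0.51. In each case the supernatant value was raised to the floor, so these bounds cannot show that a difference was under 2-fold. Ksr2, a relative of Ksr1, was dim as well, with 31.4 with the supernatant and 68.3 with medium. Mapk7, the kinase ERK5, had a log2 ratio of -0.61, and the MEK gene Map2k1, with bright signals, -0.21.

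None of the 16 measured partners and regulators of Sprouty and Spred proteins reached 2-fold on its brightest probe set. Siah2, a ubiquitin ligase that targets Sprouty2 for degradation, gave 321 with the supernatant and 234 with medium, and its 2 probe sets were 1.37-fold and 1.49-fold higher. Cbl gave 1903 with the supernatant and 1923 with medium. The kinases Tesk1 and Dyrk1a, both known to bind Sprouty proteins, had log2 ratios of 0.09 and 0.12, although a dim probe set of Dyrk1a had a log2 ratio of -0.99. Cav1, which encodes caveolin-1, a membrane protein that binds Sprouty proteins, had a log2 ratio of -0.22, the autophagy receptor Nbr1, a partner of Spred2, -0.17 (0.04 on its second probe set), and the prolyl hydroxylase Egln1 0.15.

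Other genes that restrain ERK or are induced by it held a few with large ratios beside others that differed less or hardly at all. Of 14 measured other feedback inhibitors, 3 phosphatase genes were at least 2-fold higher on their brightest probe sets and none was lower by as much. The median log2 ratio was 0.06. Dusp5, a nuclear phosphatase of ERK, had a log2 ratio of 3.13, Dusp1 1.35 and Dusp2 1.12. Dusp6, a cytoplasmic phosphatase of ERK whose transcription follows ERK activity in many cells, gave 429 with the supernatant and 662 with medium, a log2 ratio of -0.63. Dusp4, Dusp7 and Dusp9, named after their values were seen, were also lower, at -0.51, -0.41 and -0.61 on their brightest probe sets. Another Dusp9 probe set gave 10.8 with the supernatant, under the floor, and 97.0 with medium, a bound of -1.34. Spry1 and Spry2 were higher with the supernatant, as were Dusp5, Dusp1 and Dusp2, while Dusp6, Dusp4, Dusp7 and Dusp9 were lower. There was 1 array per condition, ERK activity was not measured, and its part in these differences was not tested. Of 17 measured ERK-induced genes 5 were at least 2-fold higher, the transcription factor genes Egr3, Egr2 and Fosb, the growth regulator Phlda1 and the stress-inducible gene Ier3, of which Ier3 was named after its value was seen. Phlda1 gave 1148 with the supernatant and 347 with medium, 3.31-fold higher, while Egr3 and Egr2 had log2 ratios of 5.20 and 3.61 and Fosb was at least 7.95-fold higher. Short of 2-fold, Ier2, Junb and Fos were 1.98-fold, 1.83-fold and 1.46-fold higher. Egr1, Myc, Etv5 and Ccnd1 were not higher, with log2 ratios from -0.29 (Egr1) to -0.02 (Myc). These genes too were named after their values were seen. The list's median log2 ratio was 0.45, and several of its genes also respond to cAMP and other signals. None of 11 measured ETS factors reached 2-fold. Ets2, a factor activated by ERK, gave 4180 with the supernatant and 2546 with medium, 1.64-fold higher, and its other probe set was 1.53-fold higher, while Ets1 had log2 ratios of -0.45 and -0.31 on its 2 measured probe sets. The probe sets of the other 2 ETS genes named by rule disagreed, with Etv3 at -0.20 on the brightest of 4 and a range from -0.35 to at least 0.38, and Gabpa at 0.20 and -0.24. The 0.38 came from a probe set under the floor with medium.

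**Figure D3:**
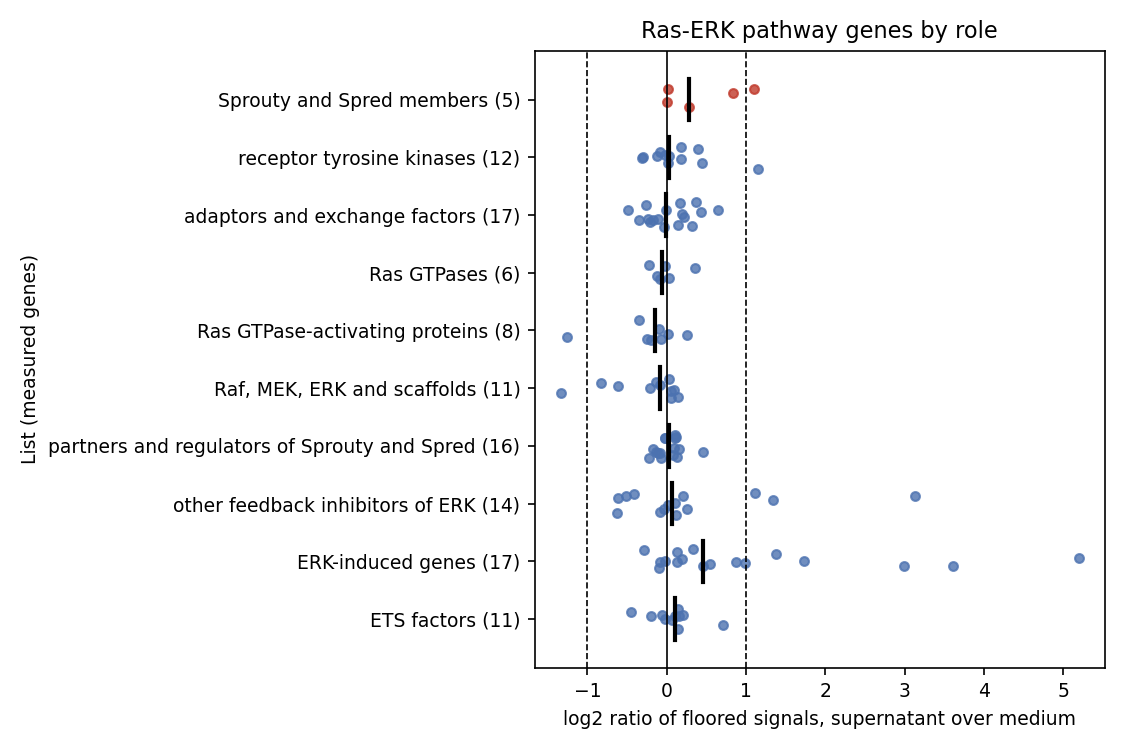
Supernatant-to-medium log2 ratio of floored signals for each measured gene (points, 1 probe set per gene, lower bounds included) in the Sprouty and Spred genes (red) and in 9 lists of Ras-ERK genes (blue), where a bar marks the median and dashed lines mark 2-fold. The ERK-induced genes have the highest median (0.45), and the lists from adaptors to partners have medians between -0.15 and 0.03.

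Markers were read on the same arrays. All 8 macrophage markers were measured, and their summed signal was 124877 with the supernatant and 121828 with medium, with Mertk the one at least 2-fold higher. Of the 9 T cell markers on the array 6, among them Cd3d, Cd3e, Cd3g and Thy1, were under the floor on both arrays. The other 3, Cd5, Zap70 and Cd28, had log2 ratios of -0.62, 0.59 and -0.48, and the summed signal of the 9 was 689 with the supernatant and 755 with medium. The levels of these markers in W3 cells were not analysed here, and their part in the Spry1 and Spry2 signals was not tested. The summed signals of the other lists were 603 with the supernatant and 416 with medium for 4 neutrophil markers, 115 and 66.7 for 5 stromal markers, 96.2 and 143 for 4 B cell markers and 315 and 386 for 4 endothelial markers, in the same order of conditions, and their part in the Sprouty and Spred signals was not tested.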

How the data were processed

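RNA from mouse BMDMs of 2 conditions was hybridized to 1 Affymetrix array each. The authors deposited 1 MAS5 intensity for every probe set, not on a log scale. The mean after trimming 2% at each end was 500.0 on both arrays, so the arrays share 1 scale, and no other step is given in the sources used here. Both columns were mapped from the labels.

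Genes were assigned to probe sets by the platform annotation (34958 with 1 gene, 932 with several, 9211 not listed), and symbols were looked up by Entrez identifier in the RefSeq gene table. For the floor, the 95th percentile of the receptor probe sets was taken on each array and the higher value kept. A gene was read from the brightest of its probe sets (mean of both arrays), and the log2 ratio was taken as supernatant over medium. With 1 array per condition there is no p-value or error, and precision is limited by the number of arrays. The members and lists were chosen with earlier results of these data known.

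Genes were named by rule: all members, up to 4 genes per list with the largest absolute log2 ratio, and Nf1, Grb2, Cbl, Ptpn11, Dyrk1a, Tesk1 and Csf1r. Outside this rule, Ier3, Dusp4, Dusp7, Dusp9, Ier2, Junb, Fos, Egr1, Myc, Etv5 and Ccnd1 were named after their values were seen. Results were recomputed under 9 alternatives, 3 of scaling (median-centred, quantile, loess spanning 30%), 4 of the floor and 2 of the probe set. The steps were tested on simulated data, in which differences were placed only in genes with medium signals over 10 times the floor. Calls on dim signals, such as that of Spry1, were therefore not tested. Python 3.11.15, numpy 2.4.6, pandas 2.3.3, statsmodels 0.14.6 and matplotlib 3.10.9 were used.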

Additional observations from a re-analysis of the deposited data

How the results depend on the processing

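No paired analysis was possible because a single array per condition leaves no replicates to pair. No direction reversed among the called values under the 9 alternatives. The log2 ratio of Spry1, 1.10 as reported, was at least 0.54 when the floor was doubled, since its medium signal was then raised to the floor. It was 0.73 when the floor became a pseudocount. In both of these settings 0 of the 5 Sprouty and Spred genes were called at least 2-fold higher. Spry1 is the gene that count rests on. It was from 1.10 to 1.20 after median-centring, quantile normalization, loess, or without a floor, with a floor at the receptor median, averaging all probe sets, or dropping those suffixed _s, _x or _a. Averaging the log2 signals over all probe sets, Spred2, 0.01 as reported, was 0.60, which takes in its dim probe sets. The median of the measured Sprouty and Spred genes was then 0.65, without Spry4, whose mean lay under the floor on both arrays. Spry4 gave no value with the doubled floor either. Spry2 ranged from 0.71 to 0.88 over the 9 alternatives and was under 2-fold in each. Among the pathway genes, 9 at least 2-fold higher as reported, 14 were higher with no floor, a setting in which 10.3% of all genes (1865 of 18194) were. Those at least 2-fold lower, 2 as reported (Ksr1 and Rasal2), numbered 8 with no floor (2116 of all genes) and 6 with the floor at the receptor median (1158 of all genes). When probe sets were averaged 1 was lower (157 of all genes). It was neither Ksr1 nor Rasal2, whose averages with the supernatant lay under the floor. The count was 0 with the doubled floor (27 of all genes), which leaves bounds for Ksr1 and Rasal2, and 0 with the pseudocount (93 of all genes). Low signals near the floor limit what can be said of Spry1, Spry4, Ksr1 and Rasal2.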
